A study of Mus musculus with 12 samples.

Results

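The genes described here are 9 genes of megakaryocytes and platelets: the chemokines Ppbp and Pf4, the glycoproteins Gp1ba, Gp1bb, Gp9 and Gp5, the collagen receptor Gp6, the granule receptor Treml1 and the tubulin Tubb1. They were chosen by symbol, and all 9 were found among the 30743 rows of the deposited table. The study sequenced polyA RNA of whole livers from male C57BL/6J fetuses at 15 ± 0.5 dpc. Of these, 6 came from dams fed a control diet with 13.5% of calories as fat and 6 from dams fed a high-fat diet (HFD) with 60%. The dams ate these diets for 12 to 14 weeks. The study describes the comparison as one of maternal obesity and HFD, but gives no body weights for this cohort of dams. The labels name no engineered allele, and which fetuses shared a dam is not known here. The values used here are 1 average per gene over all 12 livers of both diets, so they describe the level of each gene in the fetal liver and make no comparison between the diets. No value has an SD, and the spread between livers is unknown from these averages.

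Megakaryocytes are the large marrow and fetal liver cells that shed platelets. They fill their alpha granules with chemokines, build a coil of tubulin that gives platelets their disc shape, and carry surface glycoproteins that bind von Willebrand factor and collagen at a wound. In the mouse fetus they arise in the liver beside a much larger erythroid population, under transcription factors that include GATA1, NF-E2, FLI1 and RUNX1.

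Of the 9 genes, 5 were abundant and 4 had few assigned reads. Ppbp, Pf4, Tubb1, Gp9 and Gp5 ranged from 251 to 35.7 counts per 1000000 reads (CPM). Gp6, Gp1bb, Treml1 and Gp1ba ranged from 0.691 to 0.159 CPM, where a row without reads stands at 0.152 CPM. Gp6 with about 85 reads and Gp1bb with about 43 still lay above 63.6% and 58.6% of all rows. Treml1 had 3 reads and Gp1ba 1. Only the first 5 genes were above 1 CPM, as were 33.1% of all rows. The receptor complex for von Willebrand factor was split by this division, with its subunits Gp9 and Gp5 in the first group and Gp1ba and Gp1bb in the second. The 9 genes summed to 565 CPM, and Ppbp and Pf4 made up 70.8% of that sum.

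**Figure D1:**
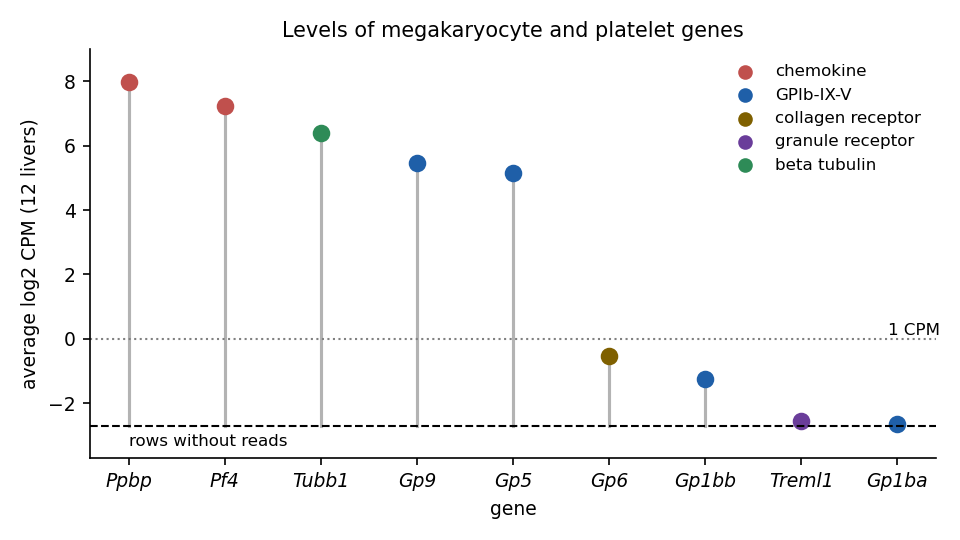
Average log2 CPM over 12 livers (vertical axis, not divided by gene length) of the 9 genes, coloured by role, with the level of rows without reads as a dashed line and 1 CPM as a dotted line. Ppbp stands highest at 7.97, Gp5 is the lowest of the 5 abundant genes at 5.16, and Gp1ba at -2.66 touches the dashed line.

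The promoters shown here are those of the chemokine genes, which had the highest levels, and of the 4 genes with a searched motif before their start. Each line gives the 200 bases before the annotated start, 5′ to 3′ on the strand of the gene, from RefSeq on GRCm38.p6. Capitals mark matches on either strand to the motifs searched, which were AGATAA for GATA factors, TGTGGT for RUNX factors, and for ETS factors the letters CAGGAAG as well as, in a separate search, CCGGAAG.
Ppbp, chr5:90768318-90768517, plus strand: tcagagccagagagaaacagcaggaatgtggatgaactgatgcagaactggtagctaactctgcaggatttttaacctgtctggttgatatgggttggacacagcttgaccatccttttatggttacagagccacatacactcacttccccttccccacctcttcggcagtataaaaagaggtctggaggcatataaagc
Pf4, chr5:90772235-90772434, plus strand: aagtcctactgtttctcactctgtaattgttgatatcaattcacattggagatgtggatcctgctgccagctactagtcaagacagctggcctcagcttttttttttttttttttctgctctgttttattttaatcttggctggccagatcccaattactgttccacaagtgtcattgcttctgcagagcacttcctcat
Gp5, chr16:30310782-30310981, minus strand: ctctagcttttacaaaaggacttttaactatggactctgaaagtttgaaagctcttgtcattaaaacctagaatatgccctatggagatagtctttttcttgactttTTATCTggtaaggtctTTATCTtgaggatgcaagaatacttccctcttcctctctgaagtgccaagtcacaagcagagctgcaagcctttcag
Gp9, chr6:87777870-87778069, plus strand: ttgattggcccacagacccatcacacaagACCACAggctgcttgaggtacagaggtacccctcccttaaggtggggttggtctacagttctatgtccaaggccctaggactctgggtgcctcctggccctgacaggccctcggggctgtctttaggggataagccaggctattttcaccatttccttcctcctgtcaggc
Gp6, chr7:4397745-4397944, minus strand: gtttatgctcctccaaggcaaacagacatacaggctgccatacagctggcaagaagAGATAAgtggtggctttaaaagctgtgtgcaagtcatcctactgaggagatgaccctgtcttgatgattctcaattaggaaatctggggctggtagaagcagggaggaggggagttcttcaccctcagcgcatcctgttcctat
Gp1ba, chr11:70638922-70639121, plus strand: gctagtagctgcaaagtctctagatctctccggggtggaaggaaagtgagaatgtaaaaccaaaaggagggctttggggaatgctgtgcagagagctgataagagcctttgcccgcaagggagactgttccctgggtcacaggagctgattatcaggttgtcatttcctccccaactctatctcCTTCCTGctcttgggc

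In windows from 250 bases before to 50 bases after the start, which were found for all 9 genes, 5 genes held a match to at least 1 of the 4 motifs. Of 32851 windows of this length in the reference, 41.6% held 1. AGATAA was in the windows of Gp5, Gp6 and Pf4, and in 11.2% of all windows. Gp5 held it at 2 places, with first bases at -93 and -77 from the start, and both were on the opposite strand. In Gp6 the match began at -144. The match of Pf4 lay after the start, at 37, outside the bases shown. CAGGAAG was found in Gp1ba at -16 and in 13.3% of all windows, and TGTGGT in Gp9 at -171 and in 16.8%. CCGGAAG was in none of the 9 and in 8.86% of all windows. Ppbp, Tubb1, Gp1bb and Treml1 held none of these letters. The abundant genes and those with few reads were thus mixed among those with and without a match. Only these exact letters were searched, so a gene without a match may still hold a site in other letters.

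**Figure D2:**
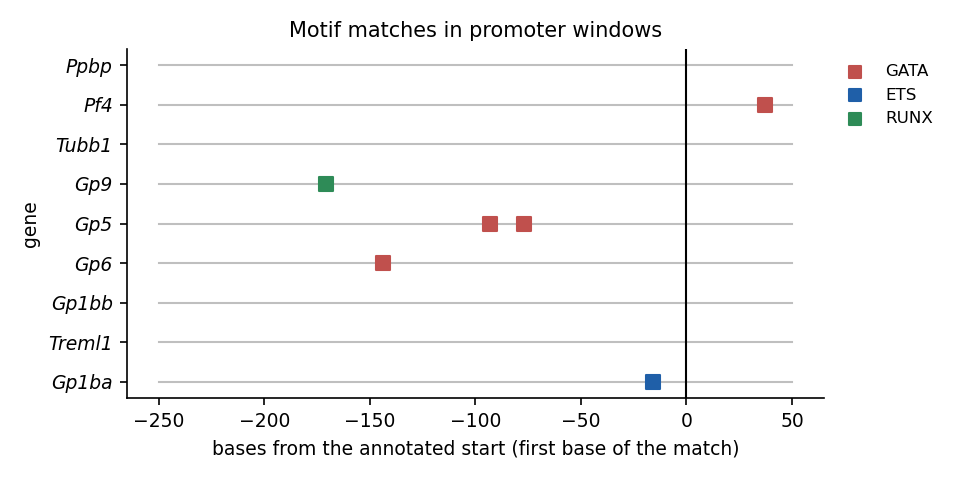
Promoter windows of the 9 genes as lines from 250 bases before to 50 bases after the annotated start (horizontal axis, bases), with squares at the first base of each motif match, coloured by factor family. Gp5 holds GATA matches at -93 and -77, and Ppbp, Tubb1, Gp1bb and Treml1 hold no square.

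Ppbp encodes the precursor of the platelet chemokine CXCL7, and Pf4 encodes platelet factor 4 (CXCL4), both of the alpha granules. Ppbp stood at 251 CPM, higher than 97.1% of the 19652 rows with reads. Pf4 stood at 150 CPM, higher than 94.7% of them. Both genes are therefore among the more abundant transcripts of the whole fetal liver, although megakaryocytes are rare there. In bulk RNA such as this, the number of cells of a type and the RNA in each of them cannot be told apart.

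Divided by the length of the longest transcript, 588 bases for Pf4 and 1083 for Ppbp, Pf4 reached 254 and Ppbp 232 CPM per kilobase. The ratio of Ppbp to Pf4 on this scale was 0.910 (95% counting interval from 0.896 to 0.925). Without the division by length Ppbp came first, and so it did per kilobase of coding sequence, at 740 against 475. The order of the chemokines thus depended on the length used.

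Both genes lie on chromosome 5 on the plus strand of GRCm38 (mm10), Ppbp from 90768518 to 90770063 and Pf4 from 90772435 to 90773383, with 2371 bases between them. Each has 3 exons. Their neighbours of the same chemokine family on this strand were far lower in level per kilobase. Cxcl5, from 90759360 to 90761624, stood at 0.885 CPM per kilobase. Cxcl3, from 90786103 to 90789600, stood at 0.0439 CPM per kilobase, from 7 reads. Cxcl15, from 90794534 to 90803067, stood at 0.00297 CPM per kilobase, from 1 read. These neighbours were chosen after their values were seen. High levels in this stretch were thus found in the platelet chemokines and not in the 3 genes beside them.

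GPIb-IX-V is the platelet receptor for von Willebrand factor. GPIb alpha (Gp1ba) holds the binding site, GPIb beta (Gp1bb) is linked to it by disulfide bonds, and GPIX (Gp9) and GPV (Gp5) associate with them. GPIb alpha, GPIb beta and GPIX are all needed for an efficient display of the receptor on the cell. Gp9, on chromosome 6 from 87778072 to 87779768, stood at 44.3 CPM, higher than 84.6% of rows with reads. Gp5, on the minus strand of chromosome 16 from 30307685 to 30310779, stood at 35.7 CPM, higher than 82.9%. Per kilobase of the longest transcript these were 50.1 for Gp9 and 16.2 for Gp5, a ratio of 3.10 (95% counting interval from 2.99 to 3.21).

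Gp1ba and Gp1bb were far below their partners. Gp1ba, on chromosome 11 from 70639122 to 70642036, stood at 0.159 CPM, which corresponds to 1 read in all 12 livers together (95% exact Poisson interval from 0.0253 to 5.57 reads). Gp1bb, on the minus strand of chromosome 16 from 18620317 to 18622403, stood at 0.424 CPM, or about 43 reads (from 31.1 to 57.9). Per kilobase of the longest transcript, Gp9 was 384 times Gp1bb (95% counting interval from 284 to 529) and 21504 times Gp1ba (from 3837 to 844770). The first ratio and its interval depend on the length used. Gp1bb stood at 0.130 per kilobase of the longest transcript, 0.251 of the shortest RefSeq transcript and 0.424 of coding sequence. On the same lengths Gp9 stood at 50.1, 50.1 and 83.1. The second ratio rests on the 1 read of Gp1ba, which cannot be told from 0 at this depth. Without subtracting the CPM of rows without reads, Gp9 stood at 50.3 and Gp1ba at 0.0585 per kilobase, so the size of this ratio depends on that step. For a receptor whose subunits associate on the cell, the listed levels of the subunit transcripts thus differed by orders of magnitude.

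The coding sequence of each of these 4 subunits lies in 1 exon in its longest coding transcript. Gp1ba has the longest coding sequence of the 4, with 2202 bases, against 1701 for Gp5, 642 for Gp1bb and 531 for Gp9. Per kilobase of the longest transcript, Gp5 was 124 times Gp1bb (95% counting interval from 91.6 to 171), whose exons largely overlap another gene model, as described with the transcript structure. This ratio depends on the length too. Per kilobase of coding sequence Gp5 stood at 20.9 and Gp1bb at 0.424.

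Gp6 encodes GPVI, the receptor through which collagen activates platelets, and it signals through the Fc receptor gamma chain. It lies on the minus strand of chromosome 7 from 4363965 to 4397744 and stood at 0.691 CPM, higher than 43.0% of rows with reads. This is about 85 reads over the 12 livers (95% exact Poisson interval from 67.9 to 105). Fcer1g, which encodes the gamma chain and is also used by myeloid and mast cells, stood at 61.9 CPM. Per kilobase of the longest transcript the gamma chain reached 90.4 and Gp6 0.0913, and per kilobase of coding sequence Gp6 had 0.574. Many reads were thus assigned to the partner chain and few to Gp6, which is not read here as absence of the Gp6 transcript.

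Treml1 encodes TLT-1, a receptor stored in alpha granules and brought to the surface of activated platelets. It lies on chromosome 17 from 48359916 to 48367176 and stood at 0.171 CPM, or 3 reads in all livers (95% exact Poisson interval from 0.619 to 8.77). Of the 9 genes only Gp1ba had fewer reads, and the counting intervals of these genes overlapped.

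Tubb1 encodes the beta-1 tubulin of megakaryocytes and platelets, the main beta tubulin of the marginal band. It lies on chromosome 2 from 174450695 to 174457882 and stood at 84.6 CPM, higher than 90.3% of rows with reads. Per kilobase it reached 60.0, above Gp9 by a ratio with a 95% counting interval from 1.16 to 1.23. Per kilobase of coding sequence the order turned, with 83.1 for Gp9 and 62.4 for Tubb1.

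Ordered by level per kilobase of the longest transcript, the 9 genes ran Pf4, Ppbp, Tubb1, Gp9, Gp5, Gp1bb, Gp6, Treml1 and Gp1ba. At the low end Gp1bb stood at 0.130, Gp6 at 0.0913, Treml1 at 0.0154 and Gp1ba at 0.00233 CPM per kilobase. The ratio of Gp1bb to Gp6 was 1.43 (95% counting interval from 0.968 to 2.09), and that of Treml1 to Gp1ba was 6.60 (from 0.529 to 346). On this scale neither pair thus differed beyond counting error. The ratio of Gp6 to Treml1 was 5.94 (from 1.96 to 29.3). For Gp1bb and Gp6 the result depended on the length used. They stood at 0.251 and 0.0913 per kilobase of the shortest RefSeq transcript, and at 0.424 and 0.574 per kilobase of coding sequence. Their read intervals, from 31.1 to 57.9 and from 67.9 to 105, did not overlap. All these intervals cover counting error only, and the spread between livers would widen them.

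The read numbers were taken from the averages themselves. The lowest average log2 CPM, -2.71, was shared by 11091 rows, and the next values rose from it in even steps. With a prior count of 2 per library, or 24 over the 12 livers, the steps were whole reads. All 4387 rows with 1 to 11 reads lay within 0.25 of a whole number, and the largest deviation was 0.148. The size of the lowest value then gives a mean effective library of 13100000 reads and a total of 158000000, rounded to 3 digits. These are sizes after the authors' normalization, and the raw reads of each liver are not known from them. At this depth 1 read over all livers adds 0.00635 CPM.

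**Figure D3:**
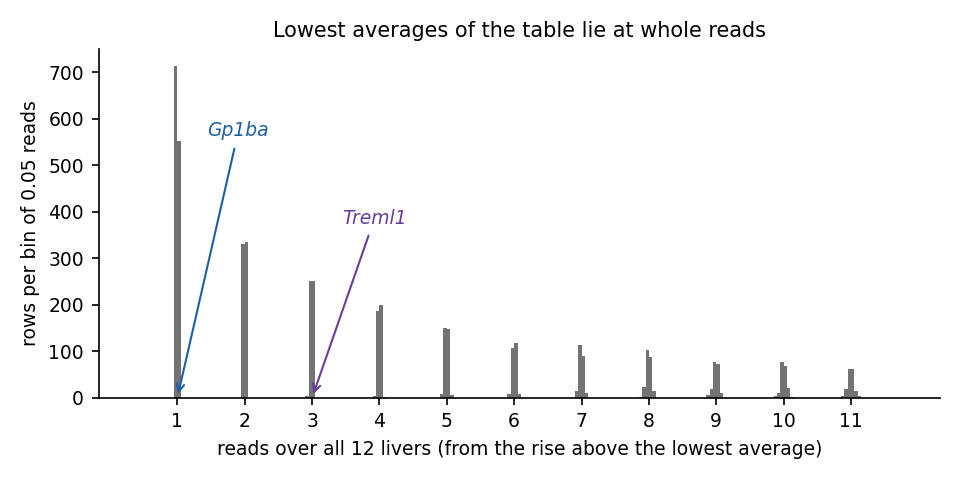
Number of rows (vertical axis, per bin of 0.05 reads) by reads over all 12 livers (horizontal axis) for rows with 1 to 11 reads. The rows pile up at whole numbers, with 1267 rows at 1 read, where Gp1ba lies, and 509 rows at 3 reads, where Treml1 lies.

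The split between the genes was set beside the number of transcripts annotated for them, which differs between annotations. In the GENCODE M21 basic set on GRCm38, Ppbp, Tubb1, Gp9 and Gp5 each have 1 coding transcript, and all 4 were above 1 CPM. Of the 5 genes with 2 or more coding transcripts, 1 was above 1 CPM, Pf4. By RefSeq transcripts the division was less close. Of the 7 genes with 1 RefSeq coding transcript 5 were above 1 CPM, and the other two, Gp1ba and Gp6, were low. Gp1bb with 2 and Treml1 with 3 RefSeq transcripts were low too. The exon bases that belong to only 1 transcript made up 3.6% in Treml1, 9.1% in Gp1ba, 48.1% in Gp1bb, 57.3% in Pf4 and 83.6% in Gp6. The 2 genes with the smallest such share, Treml1 and Gp1ba, were those with the fewest reads. Gp6, with the largest share of the 5, was low all the same.

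Across the table, levels were lower for genes with several transcripts, to a degree that depended on the annotation. Among 18716 rows matched to coding genes of this set, the median average log2 CPM was 0.70 for the 8025 genes with 1 coding transcript and -1.19 for the 5571 genes with 2. Above 1 CPM were 53.5% of the first and 40.5% of the second. With more transcripts the median changed little, at -1.37 for 3 and -1.17 for 4 or more. The share above 1 CPM fell further, to 38.1% and 35.9%. By RefSeq the difference was smaller, with a median of -0.26 for 1 transcript and -0.72 for 2, and with 48.6% and 42.8% above 1 CPM. Among genes with 2 or more transcripts, the median was -2.30 for the 1782 genes with at most 5% of exon bases in only 1 transcript and 1.55 for the 606 genes with more than 80%. The rise between them was not even, with -0.46 at 40 to 60% and -0.98 at 60 to 80%. Both housekeeping genes looked at, chosen after their values were seen, have several transcripts and differed widely. Gapdh, a glycolytic enzyme gene, stood at 5.20 CPM with 14.9% of its exon bases in only 1 of 3 transcripts, although its transcript is abundant in nearly all cells. Actb, the cytoplasmic actin gene, stood at 2581 CPM with 35.3% in only 1 of 2 transcripts. The read counter and the annotation release behind the table are not given in the sources used here, and the part of transcript structure in the levels of the 9 genes was not tested. A low value of Gp1ba, Treml1, Gp1bb or Gp6 in this table, or of a gene named further below, is therefore a low number of assigned reads. It is not read here as absence of the transcript.

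**Figure D4:**
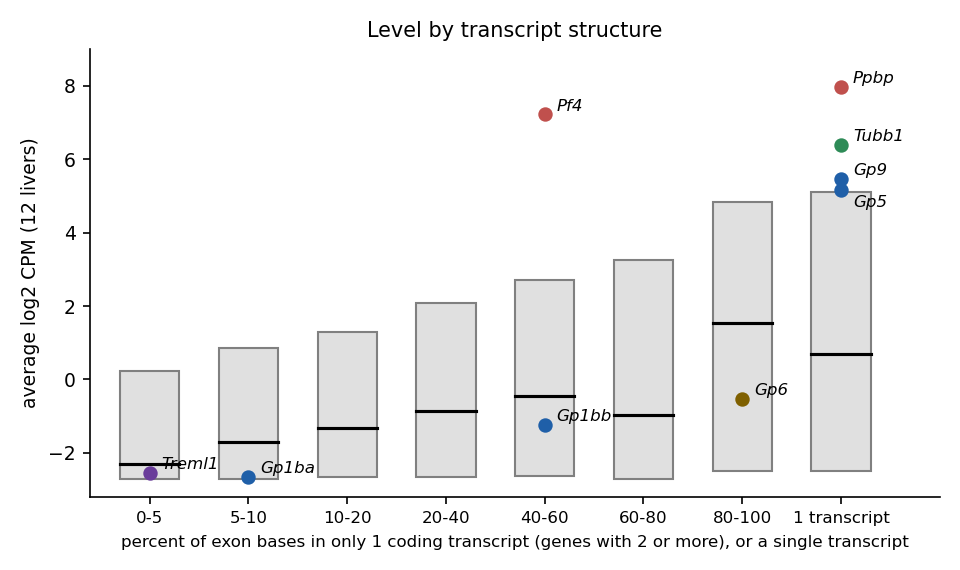
Average log2 CPM over 12 livers (vertical axis) by the percentage of a gene's exon bases that lie in only 1 coding transcript, for genes with 2 or more transcripts, and for genes with a single transcript (rightmost). Boxes span the quartiles of all genes of a class with the median as a line, and points are the 9 genes: the median rises from -2.30 in the leftmost class to 1.55 in the 80-100 class, with a dip to -0.98 in the 60-80 class.

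Gp1bb has a further overlap. Of the 2087 exon bases of its coding transcripts, 1938, or 92.9%, are also exonic in the models of Sept5 and Gm49601 on the same strand. Reads from these bases cannot be assigned to 1 gene by position. Sept5, a septin gene, stood at 0.171 CPM with 3 reads. The exons of the other 8 genes share no base with another gene model of the annotation.

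Other genes of the lineage also included both abundant transcripts and transcripts with few assigned reads. A list of 34 further megakaryocyte and platelet genes was examined by role, and 27 of them, or 79.4%, were above 1 CPM. The share was 33.1% of all rows and 45.1% of the 18716 rows matched to coding genes, and 5 of the 9 genes above. The list includes genes that other cells make too, such as Fcer1g and F5, so its share does not describe megakaryocytes alone. The median average log2 CPM was 3.29 for the 34 genes, 5.16 for the 9 and 0.20 for the rows with reads.

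Of 8 transcription factors, 7 were above 1 CPM. GATA1 and its cofactor FOG-1 (Zfpm1), which drive megakaryocyte as well as erythroid differentiation, had transcripts at 367 and 799 CPM. Nfe2, required for platelet release, stood at 572 CPM and Fli1, an ETS factor of megakaryocytes and endothelium, at 37.8 CPM. Runx1 was the exception, with 0.241 CPM or 14 reads. It has 3 coding transcripts, but so has Tal1 at 4.73 CPM, and Nfe2 has 5. Several of these factors are shared with erythroid cells, so their levels do not measure megakaryocytes alone.

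Of 9 adhesion and activation receptors, 8 were above 1 CPM. The integrin chains of the fibrinogen receptor, Itga2b and Itgb3, stood at 4.99 and 32.2 CPM. The thrombin receptor genes F2rl2 (PAR3) and F2rl3 (PAR4) stood at 35.9 and 13.1 CPM, and the podoplanin receptor gene Clec1b at 4.93 CPM. The ADP receptor gene P2ry12 stood at 0.272 CPM, or 19 reads. Per kilobase, F2rl2 stood at 14.3, F2rl3 at 7.37, Itgb3 at 5.54 and Itga2b at 1.41, beside 16.2 for Gp5 and 0.00233 for Gp1ba. These receptor genes for fibrinogen and thrombin thus lay between the subunits of the von Willebrand factor receptor in level per kilobase.

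Thpo, which encodes thrombopoietin, the hormone of platelet production that hepatocytes make, was below 1 CPM. It stood at 0.432 CPM, or 44 reads. Thpo has 3 coding transcripts, and its low number of assigned reads is not read here as absence of the transcript.

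Of 7 granule proteins, 5 were above 1 CPM, with Srgn, the proteoglycan that packs granules, at 102 CPM and Vwf, which encodes the ligand of GPIb alpha, at 3.15 CPM. F5 stood at 342 CPM, but coagulation factor V is made by hepatocytes too. Thbs1 was at 0 reads, with an upper 95% exact Poisson limit of 3.69 reads, or 0.0234 CPM above the rows without reads. Of the 5 cytoskeletal genes besides Tubb1, 4 were above 1 CPM, among them Tuba8 at 17.1 and Myl9 at 79.6 CPM, and Flna stood at 0.278. Of 4 enzyme and traffic genes, 3 were above 1 CPM, with the cyclooxygenase gene Ptgs1 at 75.1, the thromboxane synthase gene Tbxas1 at 9.56 and Rab27b at 0.311 CPM.

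**Figure D5:**
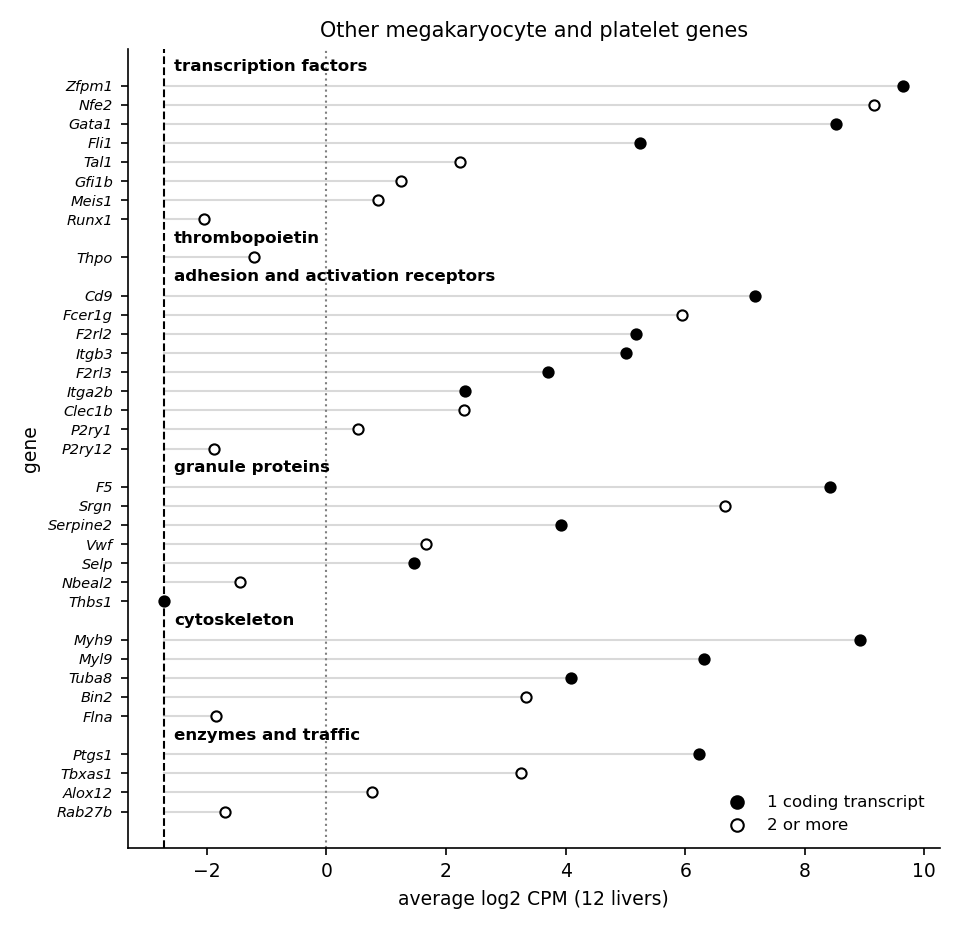
Average log2 CPM over 12 livers (horizontal axis, not divided by gene length) of 34 further megakaryocyte and platelet genes by role, with filled points for genes with 1 coding transcript and open points for genes with 2 or more. Of 16 filled points 15 lie above 1 CPM (dotted line), against 12 of 18 open points, and Thbs1 lies on the level of rows without reads (dashed line).

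Within this list, 15 of the 16 genes with 1 coding transcript were above 1 CPM, with a median average log2 CPM of 5.20. Of the 18 genes with 2 or more, 12 were above 1 CPM, with a median of 1.05. Thbs1 was the gene with 1 basic coding transcript and no reads. By RefSeq transcripts, 18 of the 19 genes with 1 were above 1 CPM, against 9 of the 15 with 2 or more.

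The tissue and other lineages were checked by their markers. The hepatocyte genes reached 63314 CPM in Alb, and 4 of the 5 were above 1 CPM. Of the 11 markers of megakaryocytes and platelets, 7 were above 1 CPM. These markers are the genes described from the start, plus Itga2b at 4.99 CPM and Vwf at 3.15 CPM. Their count thus largely restates levels given above and is not a separate check of this lineage. Among all rows, 33.1% were above 1 CPM. All 5 granulocyte markers were above 1 CPM, from 38.3 to 759. Of the 4 erythroid markers found among the rows, 3 were, and of the 5 macrophage markers 2 were. Among the 5 endothelial markers 4 were, and all 4 stellate cell markers were. Of the 3 mast cell and basophil markers, 1 was above 1 CPM, and the highest stood at 8.26 CPM. The defining genes Emr1 of macrophages and Pecam1 of endothelium were at 0 reads, while the highest markers of these types, Marco and Lyve1, stood at 208 and 151 CPM. Pecam1 has 5 coding transcripts. The hepatocyte and erythroid markers below 1 CPM were Serpina1a at 0.184 and Alas2 at 0.704 CPM. These low values are low numbers of assigned reads and are not read here as absence of a transcript or cell type.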

How the data were processed

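PolyA RNA of 12 livers was read on an Illumina HiSeq 2000. The submitters' processing notes name cutadapt 1.2.1, Subread 1.3.6-p1, edgeR and mm10, the study's methods name biomaRt for annotation, and the read counter, annotation release and edgeR version are not given in the sources used here. The authors deposited a table with, for each gene symbol, an average log2 CPM over all libraries. The table also holds 8 columns of the authors' own diet comparison (fold changes, p-values and adjusted p-values with a common and a tagwise dispersion), and these were not used. The table has no column of a single liver, so the planned test of diet on the 9 genes could not be made. The average of the tagwise analysis was used.

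CPM is 2 to the power of that value. It includes the prior count, so a row without reads stands at 0.152 CPM. The read numbers given beside a CPM value leave the prior count out. Reads over all livers were computed from the rise of a value above the lowest one. This assumes that the authors' edgeR run added its default prior count of 2 per library. The arithmetic of this step was tested on simulated data made with that same prior, which does not test the prior itself. Above 100 reads the computed reads are approximate. Levels per kilobase used the CPM minus that of rows without reads and the longest coding transcript. Intervals (95%) are exact Poisson limits, or limits of a ratio from the exact binomial, and cover counting error only, since reads are not independent molecules. Gene models were those of GENCODE M21 (GRCm38, equivalent to mm10) and promoters from RefSeq (GRCm38.p6). The tools were scipy 1.17.1 for intervals, matplotlib 3.10.9 for plots, and pandas 2.3.3 with numpy 2.4.6 under Python 3.11.15 for tables. The rule for names allowed the 9 genes, the genes of the lineage and marker lists, and any gene whose model overlaps 1 of the 9, and 1 gene of these lists is not reported here. The genes and lists were chosen with earlier results of these data known, and the look at transcript structure was added after the levels were seen.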

Additional observations from a re-analysis of the deposited data

How the results depend on the processing

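The averages pool the livers, so leaving out a liver, another count test, another normalization and other filters on counts were not run. The other deposited average was not run either. No paired analysis was possible because the table holds no value of a single liver. Per kilobase of coding sequence instead of the longest transcript, the levels were 740 for Ppbp, 475 for Pf4, 62.4 for Tubb1, 83.1 for Gp9, 20.9 for Gp5, 0.424 for Gp1bb and 0.574 for Gp6. With the shortest RefSeq transcript Gp1bb had 0.251. Without subtracting the CPM of rows without reads, a choice made after seeing the data, the levels were 0.204 for Gp1bb, 0.117 for Gp6, 0.139 for Treml1 and 0.0585 for Gp1ba. Of the 9 places in the order, 5 stayed without division by length, 3 with the coding length and all 9 with the shortest RefSeq transcript. In every one of these orders Ppbp, Pf4, Tubb1, Gp9 and Gp5 came before the other 4 genes. Among all rows the percentiles were 98.2 for Ppbp, 96.6 for Pf4, 93.8 for Tubb1, 90.2 for Gp9, 89.0 for Gp5, 63.6 for Gp6, 58.6 for Gp1bb, 42.9 for Treml1 and 37.3 for Gp1ba. Among rows above 1 CPM they were 94.5 for Ppbp, 89.7 for Pf4, 81.2 for Tubb1, 70.2 for Gp9 and 66.9 for Gp5. Of the 34 further genes, 27 were above 0.5 CPM and 24 above 2 CPM. In the 150 bases before the start, 3 of the 9 genes held a motif, against 24.3% of all windows. Below about 3 reads over all livers, or 0.0190 CPM above the rows without reads, levels cannot be told from 0 at this depth.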
